A study of Mus musculus with 20 samples.

Results

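Matrix metalloproteinase mRNA was examined in tumors grown from SCCVII cells, a murine head and neck squamous carcinoma line, under the skin of immunocompetent C3H/HeOuJ mice. The members are 10 genes picked by name, Mmp1b, Mmp2, Mmp3, Mmp8, Mmp9, Mmp10, Mmp11, Mmp12, Mmp13 and Mmp14, among 54309 genes in the count table. All 10 were present and all 10 passed the filter on low counts, which kept 19567 genes. RNA came from whole tumors, 20 libraries in 10 groups of 2, here replicates A and B. APG-157, a botanical drug from Curcuma longa that contains curcumin, was given in the chow. The antibodies against PD-1, CTLA-4 or CD8 were injected intraperitoneally. Treated groups had 1 agent (anti-CTLA-4, anti-PD-1, anti-CD8 or APG-157) or several. Those with several were APG-157 + anti-PD-1, then APG-157 + anti-CTLA-4 (called the combination), anti-PD-1 + anti-CTLA-4 (dual blockade), both of these antibodies plus APG-157 (the triple treatment), and the combination given to mice depleted with anti-CD8 (the depleted combination). The control group had neither drug nor checkpoint antibody. The paper describes saline injection for the controls of its main treatment experiment and IgG for those of a separate CD8 depletion experiment. The labels do not say from which experiment the control and combination libraries came. All 10 groups share the cell line, the mouse strain and the flank site. The labels do not say whether A and B are separate tumors, so p-values cover only the spread between these libraries, which may be technical.

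Matrix metalloproteinases are zinc-dependent endopeptidases that cut the extracellular matrix. They are made as inactive proenzymes, are activated by proteolysis, and are held in check by the tissue inhibitors of metalloproteinases, the Timp proteins. In carcinomas, fibroblasts, macrophages, neutrophils and the tumor cells themselves can each make a different subset, and transcription of several members depends on AP-1, the Fos and Jun factors that cytokines such as TNF and IL-1 activate.

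Of the 10 members, 6 lie together on mouse chromosome 9 in the order Mmp13, Mmp12, Mmp1b, Mmp3, Mmp10 and Mmp8. Promoter windows from 250 bases before to 50 bases after the annotated start (RefSeq, GRCm38.p6) were at hand for 8 members. The AP-1 site, TGAGTCA or its reverse complement TGACTCA, stood in a window of 5 of these 8 genes, against 5.95% of all 27025 genes with windows of the same length (5.20% of 32851 windows). All 5 belong to the chromosome 9 cluster. The site began 35 bases before the start in Mmp13, 44 in Mmp12 (in 1 of its 2 windows), 46 in Mmp3, 63 in Mmp10 and 93 in Mmp1b. It was not in the windows of Mmp8, Mmp11 and Mmp14. Outside the members, Mmp1a and Mmp7 held it, 2 of 10 other metalloproteinase genes with a window. The stretch of 120 bases before the start is shown for the 5 genes, 5′ to 3′ on the gene's strand, because they include Mmp3 and Mmp1b, which were called in opposite directions against the depleted combination. Capitals mark the AP-1 match, which is a match of letters and not a measured binding site.
Mmp3, chr9:7445702-7445821, plus strand: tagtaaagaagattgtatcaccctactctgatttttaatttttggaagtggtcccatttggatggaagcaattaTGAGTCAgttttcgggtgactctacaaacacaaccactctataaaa
Mmp10, chr9:7502222-7502341, plus strand: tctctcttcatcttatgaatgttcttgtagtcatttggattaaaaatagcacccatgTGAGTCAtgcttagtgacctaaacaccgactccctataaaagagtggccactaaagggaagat
Mmp13, chr9:7272394-7272513, plus strand: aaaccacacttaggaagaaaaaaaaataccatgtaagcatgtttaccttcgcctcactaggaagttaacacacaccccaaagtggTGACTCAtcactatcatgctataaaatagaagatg
Mmp12, chr9:7347254-7347373, plus strand: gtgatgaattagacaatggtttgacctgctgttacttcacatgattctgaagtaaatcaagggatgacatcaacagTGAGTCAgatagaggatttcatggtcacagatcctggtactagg
Mmp1b, chr9:7388027-7388146, minus strand: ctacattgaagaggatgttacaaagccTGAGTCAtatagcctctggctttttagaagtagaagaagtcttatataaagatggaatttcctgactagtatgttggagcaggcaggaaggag

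Counts per library summed to 43.9 to 72.1 times 1e6 (median 54.9 times 1e6). Levels are given as CPM, counts scaled to a common library size after normalization by trimmed mean of M-values (TMM). Cd8a, the target of the depleting antibody, was at 0.121 to 0.381 CPM in the 4 libraries of the anti-CD8 groups and at 0.608 to 56.6 CPM in the 16 others. Macrophage markers were high in every library, with Lyz2 between 1409 and 4606 CPM. Of 10 neutrophil markers, 8 had a median below 1 CPM, with Ly6g at 0 in 14 libraries and S100a8 at most 2.11 CPM, while the receptor genes Csf3r (4.55 to 41.9 CPM) and Cxcr2 (2.50 to 8.07 CPM) were detected in every library. The list called squamous epithelial here also holds genes of epithelia in general, Krt8, Krt18, Epcam and Cdh1. Krt8 and Krt18 lay between 468 and 1258 CPM. The squamous keratins Krt5, Krt6a and Krt17 were at 0 in 16, 15 and 12 libraries. Replicate B of the depleted combination stood apart, with adipocyte markers at a mean log2(CPM + 0.1) of 8.05, against −1.93 to 1.70 in the other 19 libraries. It also had the highest neutrophil list level, 0.46 against −1.80 to −0.57, but Ltf made up 563 of the 582 CPM summed over that list. In this group against control, S100a8, S100a9 and Csf3r had log2 fold changes of −0.54, −0.55 and −0.69, and Cxcr2 and Mpo 0.21 and 0.89. Ly6g, Mpo and Elane were at their highest in this library, each below 1 CPM. Its squamous epithelial list level was also the highest, 3.27 against 0.42 to 2.32, with Epcam at 218 CPM and Cdh1 at 224 CPM (medians over all libraries of 0.212 and 4.43 CPM). Krt8 and Krt18, the most abundant genes of that list, were at their lowest there, 508 and 468 CPM. The part of these markers in the results that rest on this library was not tested. The combination libraries were much more alike than any other pair. The SD of their log2 differences over genes was 0.20, against 0.44 to 1.54 in the other groups. Their counts still differed by more than sampling noise (mean chi-square of 11.9 per gene), and they were kept as 2 libraries. The median chi-square was only 1.54, against 6.06 to 57.4 in the other groups. The paper mentions a small resected tumor of this group used for flow cytometry and a single small tumor used for a western blot. It does not say how many tumors of the group gave RNA.

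Per kilobase of exon, the family was dominated by Mmp2, Mmp14 and Mmp9 in every group. Median levels were 98.2 CPM per kilobase for Mmp2 (gelatinase A, which cuts denatured and basement membrane collagen), 89.9 for Mmp14 (the membrane-bound enzyme that activates pro-Mmp2) and 41.9 for Mmp9 (gelatinase B). These 3 genes held a median of 37.4%, 34.8% and 17.1% of the summed level per length of the members. Mmp2 stood above Mmp14 in 14 of 20 libraries, so this order was not fixed, while Mmp14 was above Mmp9 in all 20. Mmp13 (collagenase 3, the main interstitial collagenase of rodents) followed at 8.39 CPM per kilobase and was below Mmp9 in all 20. Mmp11 (stromelysin 3), Mmp3 (stromelysin 1) and Mmp10 (stromelysin 2) had medians of 4.21, 3.78 and 3.29 CPM per kilobase, and their ranges overlapped. Mmp12 (macrophage elastase) had a median of 1.60 CPM per kilobase. Mmp8 (neutrophil collagenase) at 0.0681 and Mmp1b (1 of the mouse counterparts of human MMP1) at 0.0490 were close to the detection limit, Mmp1b with 0 to 21 counts in a library. Mmp1b resembles Mmp1a, and Mmp3 resembles Mmp10, so the estimated counts may be split between near copies. The steadiest member was Mmp14, between 233 and 459 CPM, with an SD of 0.22 on the log2 scale over all libraries. Mmp3, Mmp8 and Mmp12 were the most variable, with SDs of 1.52, 1.57 and 1.45.

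**Figure D1:**
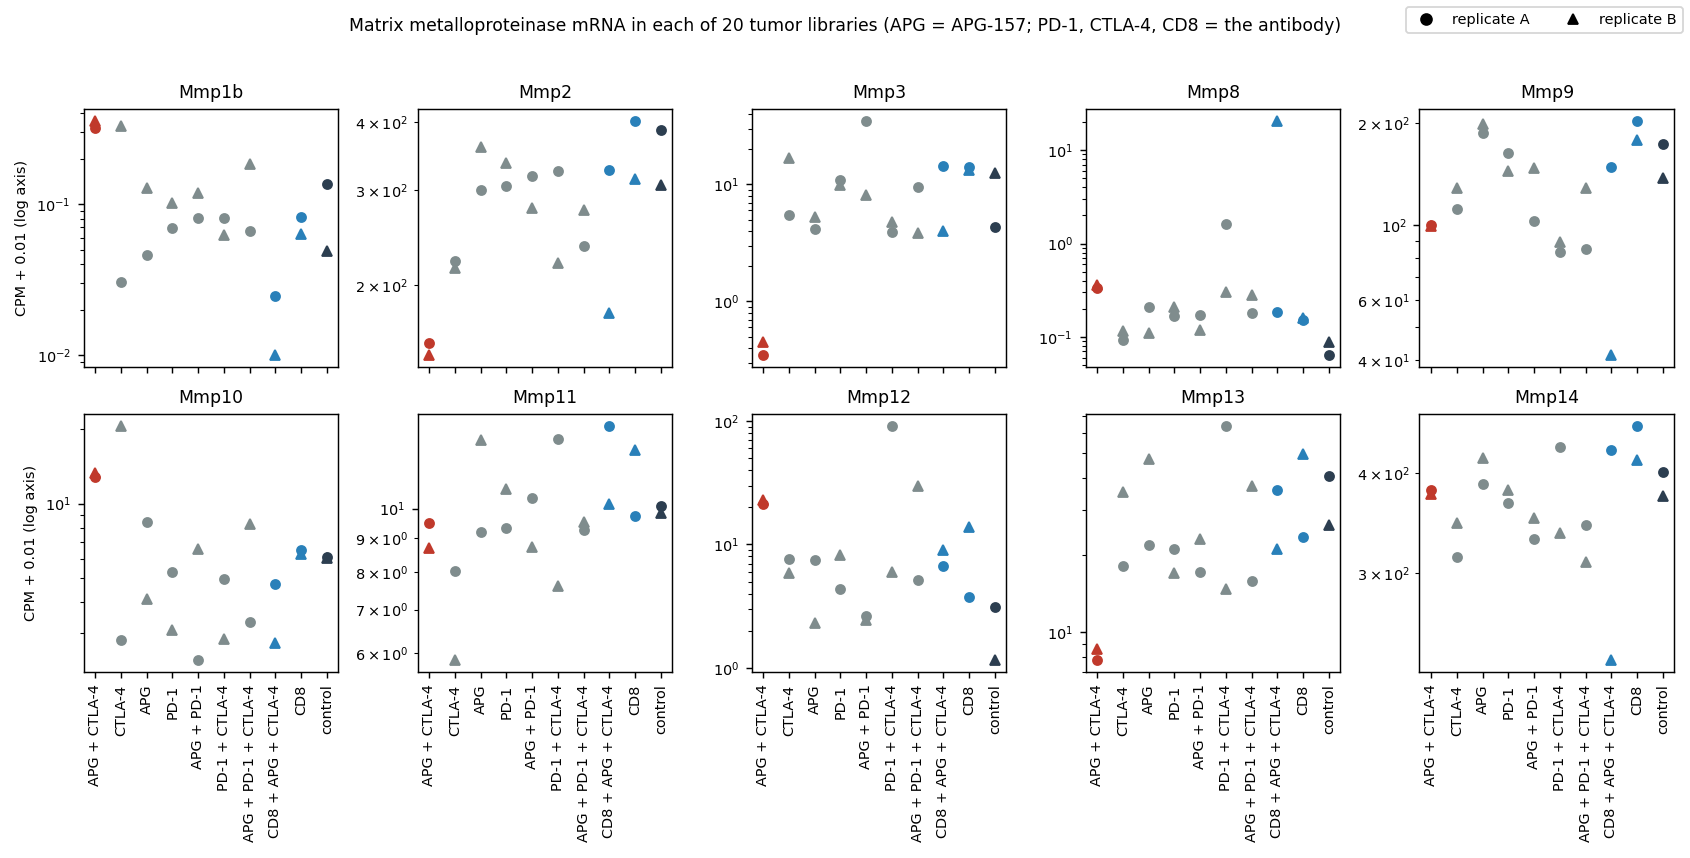
CPM of each member in every library, 1 panel per gene, with groups along the x axis and CPM plus 0.01 on a log y axis; circles are replicates A and triangles replicates B. The combination pair (red) is the lowest of all 20 libraries for Mmp2, Mmp3 and Mmp13 (the share of all genes with this order was not counted), and a single library of the depleted combination carries Mmp8 at 20.7 CPM.

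The first question was whether the combination altered metalloproteinase mRNA relative to control tumors. No member passed an adjusted p of 0.05 in edgeR (0 of 10, against 0.0204% of 19567 genes, 4 genes), so no member is called changed. At an unadjusted p under 0.05 there were 4 members, against 11.1% of all genes tested. The DESeq2 test called 3, Mmp2, Mmp3 and Mmp13, against 2.31% of genes.

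Mmp3, the stromelysin that degrades proteoglycans and activates other proenzymes, had the largest difference. Its levels were 0.338 and 0.439 CPM in the combination libraries (23 and 24 counts), against 4.29 and 12.5 CPM in control. Every one of the other 18 libraries lay at or above 3.80 CPM, so the pair did not overlap with any group. The share of all genes with such a gap was not counted, and these libraries were much more alike than any other pair. The log2 fold change was −4.43 ± 0.89 (SE), with an edgeR adjusted p of 0.149. Against anti-CTLA-4 alone, at 5.46 and 16.7 CPM, it was −4.83 ± 0.91 with an edgeR adjusted p of 0.0645. No member passed in that second comparison either (0 of 10, against 0.00511% of genes, 1 gene). There, 2 members had an unadjusted p under 0.05, against 23.6% of genes, and DESeq2 called 2, Mmp3 and Mmp13, against 17.8% of genes. The interaction of APG-157 with anti-CTLA-4, which asks whether the pair departs from the sum of the single agents, was −3.998 ± 1.13 for Mmp3 on the log2 scale, with an edgeR adjusted p of 0.463. Only 0.00511% of genes passed for this interaction, and no member was among them.

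Mmp10, a close paralog of Mmp3, had levels of another order. It was at 12.7 and 13.3 CPM in the combination libraries, against 6.09 and 6.03 CPM in control. Only replicate B of anti-CTLA-4, at 20.6 CPM, was higher, and its partner, replicate A, was at 2.81 CPM. The log2 fold change over control was 1.10 ± 0.75, with an edgeR adjusted p of 0.585. Mmp1b followed Mmp10 across the 20 libraries (Pearson r of 0.76, a description), and reached 0.309 and 0.347 CPM in the combination libraries against 0.126 and 0.0389 CPM in control. These are 21 and 19 counts in the combination, against 7 and 2 in control.

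The gelatinase Mmp2 was at 157 and 149 CPM in the combination libraries, against 388 and 307 CPM in control. These were its 2 lowest levels, since the other 18 libraries ranged between 178 and 403 CPM. As for Mmp3, the share of all genes with this order was not counted. The log2 fold change was −1.19 ± 0.26, with an edgeR adjusted p of 0.170. Mmp9 was at 99.8 and 99.2 CPM in the combination, against 174 and 138 CPM in control (log2 fold change −0.65 ± 0.41, edgeR adjusted p of 0.552). Mmp14 did not separate, with 382 and 377 CPM in the combination and 402 and 375 CPM in control.

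Among the collagenases, Mmp13 was at 7.76 and 8.59 CPM in the combination libraries, against 40.8 and 26.2 CPM in control. No other library was below 14.7 CPM, and the share of all genes with such a gap was again not counted. The log2 fold change was −2.04 ± 0.67, with an edgeR adjusted p of 0.343. Mmp12, the macrophage elastase, had a difference of the opposite sign, with 21.1 and 22.9 CPM in the combination, against 3.11 and 1.15 CPM in control (log2 fold change 3.37 ± 1.17, edgeR adjusted p of 0.373). Of the other 18 libraries, 16 lay below the pair, and the 2 above it also came from mice given anti-CTLA-4. The paper, which also used DESeq2, lists Mmp12 among the top up-regulated genes of this comparison. The DESeq2 test here did not call Mmp12. Mmp11 did not differ beyond its spread, at 9.51 and 8.68 CPM against 10.1 and 9.82 CPM in control. The 5 genes with an AP-1 match thus had log2 fold changes of both signs, −4.43 and −2.04 for Mmp3 and Mmp13, and 1.10, 1.96 and 3.37 for Mmp10, Mmp1b and Mmp12.

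The mean level of the stromal marker lists was also lowest in these 2 libraries, although no gene of either list passed in edgeR against control. The fibroblast list (10 genes) had a mean log2 level of 3.80 and 3.75 in the combination libraries, against 4.70 to 6.74 in the other 18. Among its genes, Postn had a log2 fold change over control of −2.95 (edgeR adjusted p of 0.0851) and Pdgfrb of −1.92, while Pdgfra and Thy1 had 0.13 and 0.12, and 8 of the 10 were negative with a list median of −1.25, against −0.03 over all genes. The endothelial list (6 genes) was at 3.18 to 3.26, against 3.52 to 4.87. The macrophage list, at 8.79 to 8.83, lay inside the range of the other libraries (7.58 to 9.05). In whole tumors, fewer cells of a type and less RNA per cell cannot be told apart. The part of these markers in the metalloproteinase levels was not tested beyond the correlations below.

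**Figure D2:**
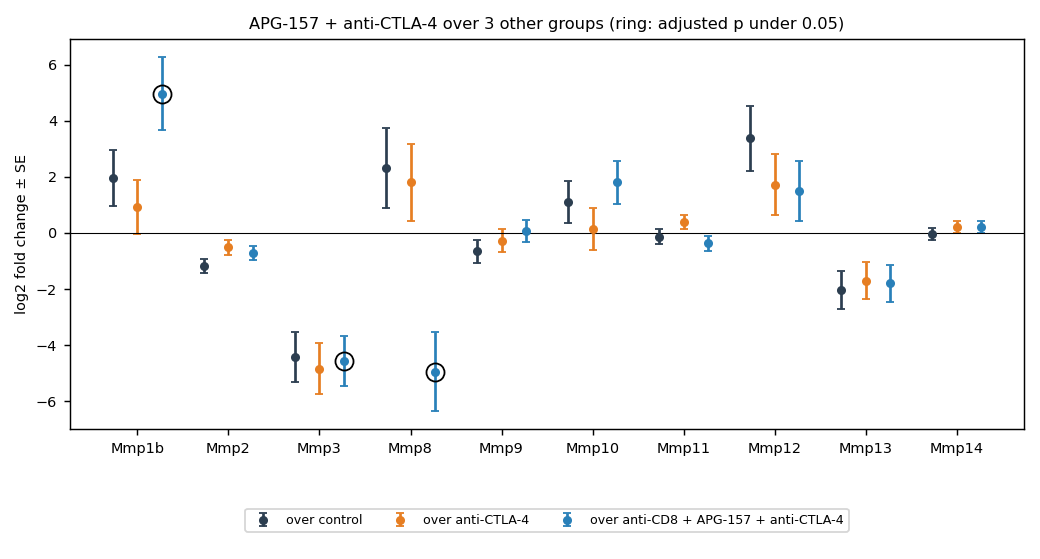
Log2 fold changes ± SE (edgeR) of the 10 members in the combination over control, over anti-CTLA-4 and over the depleted combination; rings mark an adjusted p under 0.05. Mmp3 lies between −4.83 and −4.43 in all 3 comparisons, which share the same 2 combination libraries, and the rings are on Mmp1b, Mmp3 and Mmp8 in the third.

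In the paper, CD8 depletion was a separate experiment, and the labels do not say from which experiment the combination libraries came. Depletion and experiment therefore cannot be told apart in the comparison of the combination with the depleted combination. Here 3 members passed in edgeR, 1 higher and 2 lower in the combination without depletion. This is 3 of 10, against 19.0% of all genes (3722, 1601 higher and 2121 lower), so the share of members was not far from that of genes at large. DESeq2 called 6 of 10, against 30.1% of genes. The edgeR calls were Mmp1b, Mmp3 and Mmp8. Mmp3 was at 0.338 and 0.439 CPM, against 14.3 and 3.98 CPM with CD8 depletion (log2 fold change −4.56 ± 0.90, edgeR adjusted p of 0.0252). Mmp1b had 40 counts over the 2 combination libraries, against 1 count over the 2 depleted ones, a ratio of 38.0 with an exact 95% interval of 6.43 to 1536 that covers counting error only. Its edgeR log2 fold change was 4.97 ± 1.30, with an adjusted p of 0.0298. Mmp1b passed the low-count filter through the combination libraries, where it is high, and replicate B of anti-CTLA-4 (0.320 CPM). Its call is therefore not independent of the filter.

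Mmp8 rested on 1 library. It was at 0.324 and 0.347 CPM in the combination, against 0.174 and 20.7 CPM (12 and 980 counts) in the depleted group (log2 fold change −4.95 ± 1.41, edgeR adjusted p of 0.0346). The high value is that of replicate B, and no other of the 20 exceeded 1.63 CPM. That library had the highest adipocyte, neutrophil and squamous epithelial list levels, with most of its neutrophil list CPM from Ltf. Without that replicate, Mmp8 had a log2 fold change of 0.94 with an edgeR adjusted p of 0.605, the opposite sign. Without it, Mmp3 kept its sign at −5.20 (edgeR adjusted p of 0.152) and Mmp1b at 4.31 (edgeR adjusted p of 0.275), and 0 of 10 members passed, against 0.0394% of genes. Leaving out either combination library also left 0 members called.

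Relative to control, the depleted combination had 0 of 10 members called in edgeR (0.0102% of genes), with 2 at an unadjusted p under 0.05 (19.1% of genes). DESeq2 called 1, Mmp8, against 7.12% of genes. Anti-CD8 alone had 0 of 10 called in edgeR (0% of genes), 0 at an unadjusted p under 0.05 and 0 in DESeq2. Mmp8 was at 0.144 and 0.148 CPM with anti-CD8 alone, against 0.0539 and 0.0777 CPM in control. The level of Mmp12 was 3.77 and 13.8 CPM with anti-CD8 alone, against 3.11 and 1.15 CPM in control.

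Across all 10 groups, edgeR found a difference for 1 member, Mmp8 (adjusted p of 0.0444), against 0.879% of genes, and 4 members had an unadjusted p under 0.05, against 16.5% of genes. Without replicate B of the depleted combination, 0 members passed. In DESeq2, 4 passed (Mmp2, Mmp3, Mmp8 and Mmp12), against 17.8% of genes.

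Each agent was then compared over the 8 groups without CD8 depletion, 8 libraries with it against 8 without. For anti-CTLA-4, no member passed in edgeR (0 of 10, against 0.250% of genes, 49 genes), and 4 had an unadjusted p under 0.05, against 10.1% of genes. DESeq2 called 3, Mmp2, Mmp3 and Mmp12, against 3.55% of genes. Mmp12 was between 5.10 and 91.8 CPM with anti-CTLA-4 (median 14.3), against 1.15 to 8.22 CPM without it (median 2.85). The log2 difference was 2.39 ± 0.56, with an edgeR adjusted p of 0.101. The highest level, 91.8 CPM, was replicate A of dual blockade, whose replicate B was at 5.99 CPM. The triple treatment was split in the same way, with 5.10 CPM in replicate A and 29.8 CPM in replicate B. Both of these differences within a group were larger than the fitted difference between libraries with and without the antibody.

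Mmp2 was between 149 and 325 CPM with anti-CTLA-4 (median 221), against 277 to 388 CPM without it (median 313). Its log2 difference was −0.56 ± 0.13, with an edgeR adjusted p of 0.0851, and 1 anti-CTLA-4 library reached the upper part of the range, replicate A of dual blockade. Mmp9 was between 83.5 and 128 CPM with anti-CTLA-4, against 103 to 199 CPM without it (log2 difference −0.60 ± 0.20, edgeR adjusted p of 0.277). Mmp3 was between 0.338 and 16.7 CPM with anti-CTLA-4, against 4.16 to 35.1 CPM without it (log2 difference −1.54 ± 0.39, edgeR adjusted p of 0.133). The levels with and without the antibody overlapped for all 10 members.

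**Figure D3:**
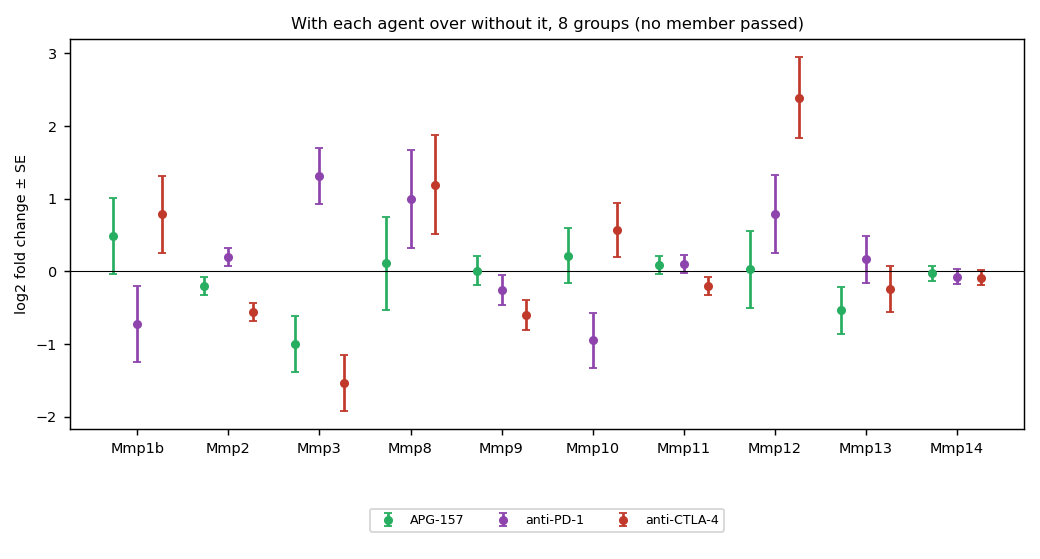
Log2 difference ± SE (edgeR) of the 10 members between 8 libraries with and 8 without each agent, drawn from left to right as APG-157, anti-PD-1 and then anti-CTLA-4; above 0 is higher with the agent. The largest values are Mmp12 at 2.39 and Mmp3 at −1.54 for anti-CTLA-4 and Mmp3 at 1.31 for anti-PD-1, and no point passed an adjusted p of 0.05.

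For anti-PD-1, 0 of 10 members passed in edgeR (0% of genes), with 2 at an unadjusted p under 0.05 (8.77% of genes), and DESeq2 called 1, Mmp3, against 0.902% of genes. Mmp3 was between 3.80 and 35.1 CPM with anti-PD-1 (median 8.79), against 0.338 to 16.7 CPM without it (median 4.76). The log2 difference was 1.31 ± 0.39, with an edgeR adjusted p of 0.561. Mmp10 was between 2.33 and 8.30 CPM with anti-PD-1, against 2.81 to 20.6 CPM without it (log2 difference −0.95 ± 0.38, edgeR adjusted p of 0.561). For APG-157, 0 of 10 passed (0% of genes) and 1 had an unadjusted p under 0.05 (7.36% of genes), with 0 called in DESeq2. This 1 member was Mmp3, at a log2 difference of −1.002 ± 0.39 and an edgeR adjusted p of 0.657. Its levels were 0.338 to 35.1 CPM with APG-157, against 3.92 to 16.7 CPM without it, so both the lowest and the highest Mmp3 level came from mice given the drug.

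The single agents and the other combinations gave no call against control in edgeR, 0 of 10 members and 0% of genes in each. APG-157, anti-PD-1 and APG-157 + anti-PD-1 each had 0 members at an unadjusted p under 0.05, anti-CTLA-4 and the triple treatment 1 each (6.45% and 4.48% of genes), and dual blockade 2 members (6.04% of genes). DESeq2 called 1 member in dual blockade, Mmp12, against 0.539% of genes, and 0 in the others. That log2 fold change was 4.52 ± 1.23 (edgeR adjusted p of 0.730), from 91.8 and 5.99 CPM in the treated libraries against 3.11 and 1.15 CPM in control. Replicate A of dual blockade also had the highest Mmp13, 64.0 CPM, while replicate B was at 14.7 CPM.

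Of the 5 inhibitors, 3 were abundant and 2 were not. Timp2 lay between 316 and 611 CPM, Timp3 between 289 and 824 CPM and Timp1 between 42.3 and 102 CPM. Reck, a membrane-anchored inhibitor, was between 1.97 and 5.73 CPM. Relative to control, the combination had log2 fold changes of 0.02 for Timp1, 0.05 for Timp2, 0.31 for Timp3 and −0.10 for Reck. None of the 5 inhibitors passed against control in any group. Timp4 was near 0 (median of 0.0176 CPM) except in the adipocyte-rich library, at 54.1 CPM, and was the only inhibitor called when the combination was set against the depleted combination, 1 of 5 against 19.0% of all genes (log2 fold change −10.54, edgeR adjusted p of 0.0338). Without that library its log2 fold change was −0.79 (edgeR adjusted p of 0.894).

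Of 13 other metalloproteinase genes, 9 passed the filter and 0 were called against control in any group. Of these 9, 2 were lower in the combination than in the depleted combination, where 10.8% of all genes were called lower. They were Mmp17 (log2 fold change −2.90, edgeR adjusted p of 0.0291) and Mmp15 (−1.40, edgeR adjusted p of 0.0404). Mmp15 was at 5.34 and 4.24 CPM, against 6.24 and 19.0 CPM, and Mmp17 at 0.471 and 0.566 CPM, against 0.709 and 7.08 CPM, so both highest values again came from replicate B of the depleted group. Without that replicate, the log2 fold changes were −0.45 for Mmp17 and −0.38 for Mmp15 (edgeR adjusted p of 0.616 and 0.593).

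Upstream of the enzymes, 16 cytokine and transcription factor genes that act on metalloproteinase transcription were tested. With anti-CTLA-4, 2 of the 16 were higher and 0 lower, and the list's median log2 difference was 0.22, against 0.00 over all genes. Of all 19567 genes, 0.250% were called in this contrast, 31 higher and 18 lower. Fosb, an AP-1 subunit, was higher (log2 difference 1.12 ± 0.16, edgeR adjusted p of 0.0171), and so was Tnf (0.92 ± 0.16, edgeR adjusted p of 0.0454). Fosb was at 6.36 and 6.23 CPM and Tnf at 10.8 and 10.6 CPM in the combination, against 2.41 and 3.66 CPM and 3.03 and 4.49 CPM in control. In the same contrast, where 0.0920% of all genes were called lower, 1 of 7 tested matrix substrates was lower and 0 higher. It was Eln, elastin, the substrate for which Mmp12 is named (log2 difference −2.61 ± 0.43, edgeR adjusted p of 0.0399). Eln was at 3.43 and 3.23 CPM in the combination, against 251 and 227 CPM in control. Over the compared libraries it lay between 3.23 and 152 CPM with anti-CTLA-4, against 36.0 to 444 CPM without it, so these levels overlapped. These 3 genes kept their sign without any 1 of the compared libraries, but not their side of the threshold. The edgeR adjusted p lay between 0.0158 and 0.0930 for Fosb, 0.0313 and 0.180 for Tnf, and 0.00268 and 0.180 for Eln. Of 6 genes that activate metalloproteinases, such as Furin and Plat, 0 were called for anti-CTLA-4, against 0.250% of all genes.

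How the members followed the cell type markers was described by correlation over the 20 libraries, with 40 pairs of 10 members and 4 marker lists (macrophage, neutrophil, fibroblast, squamous epithelial). By a permutation test of Pearson's r, 5 of the 40 pairs had a Benjamini-Hochberg adjusted p under 0.05. The permutations ignored the groups, so libraries that share a treatment were taken as exchangeable, and these p-values may be too small. Mmp3 was higher where the fibroblast list was high (r of 0.77, permutation p of 2.80e-04, adjusted 0.0112, Spearman's rho of 0.45, adjusted permutation p of 0.333). Without the 2 libraries farthest from the median of that list, both of them of the combination, r was 0.43, so the relation rests largely on that pair. It was 0.89 within the A libraries and 0.60 within the B libraries. Mmp2 had an r of 0.48 with the same list (adjusted permutation p of 0.118), −0.04 without those 2 libraries and 0.66 without the adipocyte-rich library (adjusted permutation p of 0.0315). Mmp10 was lower where the fibroblast list was high (r of −0.63, adjusted permutation p of 0.0238), with −0.45 without the pair, −0.72 within A and −0.59 within B. This pair did not pass by Spearman's rho (−0.53, adjusted permutation p of 0.162), nor by r without the adipocyte-rich library (−0.60, adjusted permutation p of 0.0534).

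The neutrophil list gave the other 3 pairs, all negative. Of its 10 genes, 8 had a median below 1 CPM. Mmp10 had an r of −0.65 and a rho of −0.74 (adjusted permutation p of 0.0211 and 0.0096), and this r was −0.63 without the 2 farthest libraries, −0.84 within A and −0.66 within B. Mmp9 (r of −0.76) and Mmp14 (r of −0.70) had −0.55 and −0.40 without the adipocyte-rich library, and neither then had an adjusted p under 0.05 (0.102 and 0.313). Mmp8, the neutrophil collagenase, had an r of 0.67 with the neutrophil list (adjusted permutation p of 0.0883), and 0.12 without that library. Its r with the squamous epithelial list was 0.64 (adjusted permutation p of 0.137), and −0.17 without that library. Mmp12 had an r of 0.12 with the macrophage list (adjusted permutation p of 0.743), and no pair of Mmp12 with any of the 4 lists was among the 5. Mmp9 had an r of 0.18 with the macrophage list (adjusted permutation p of 0.686). Without the adipocyte-rich library this r was −0.62 (rho of −0.63). It was −0.82 within A and 0.64 within B, which holds that library.

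**Figure D4:**
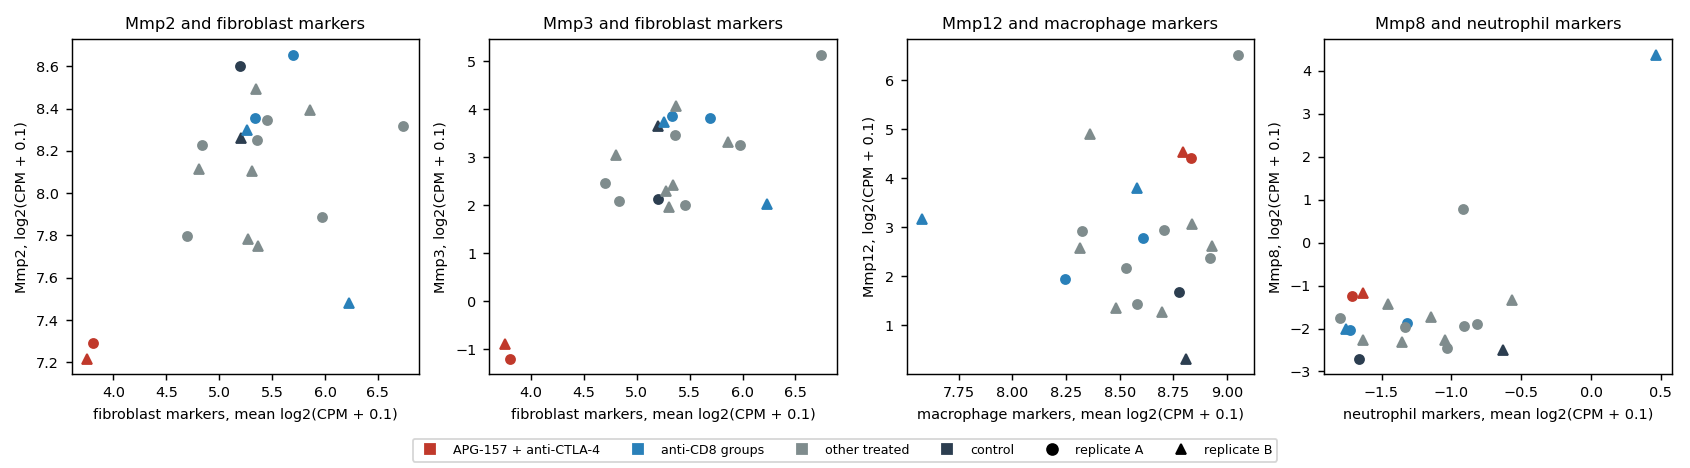
Log2(CPM + 0.1) of Mmp2, Mmp3, Mmp12 and Mmp8 against the mean log2(CPM + 0.1) of a marker list, 1 point per library (circles replicate A, triangles replicate B). The red combination points lie at the low end of the fibroblast list for Mmp2 and Mmp3, and 1 anti-CD8 group library alone carries the relation of Mmp8 with the neutrophil list.

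The genes whose levels ran most like each member over the 20 libraries were found from Pearson's r of log2(CPM + 0.1), as a description. Mmp2 ran with Tgfb3 (r of 0.93), Mmp3 with Cd163 and Aspn (0.87 for each), Mmp9 with Colgalt1 (0.94) and Mmp14 with Fgfr1 (0.90). Mmp12 ran with Arg1 (0.86), an enzyme of arginine breakdown known from alternatively activated macrophages. Without the adipocyte-rich library (19 libraries), the highest r was again with Tgfb3 for Mmp2 (0.92), but with Gpx7 for Mmp3 (0.89, with Aspn at 0.88), Fam234b for Mmp9 (0.93), Igsf3 for Mmp14 (0.89) and Rhov for Mmp12 (0.88, with Arg1 at 0.87). Among the members themselves, Mmp2 ran with Mmp9 (0.67), Mmp13 (0.67) and Mmp3 (0.65), while Mmp3 and Mmp12 ran opposite (−0.54). The pair of Mmp8 and Mmp9 had the lowest r, −0.79, which was −0.56 without the adipocyte-rich library. These libraries share treatments and tumor composition, so the values do not stand for independent samples.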

How the data were processed

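Bulk tumor mRNA was sequenced (20 libraries). Per the labels and the study's methods, the authors trimmed reads with Trimmomatic 0.39, quantified transcripts with Salmon (1.5.0 in the submitters' notes, a later patch version in the methods) on GRCm39, and summed them to genes. They deposited the expected counts without scaling, and 71.5% of the values are whole. A second deposited table of log2 values was not used. Gene symbols were taken from an annotation table (51484 of 54309 IDs matched), and promoter sequences from RefSeq GRCm38.p6, the C57BL/6J reference, whereas the mice are C3H.

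Counts were rounded and filtered with filterByExpr (minimum count 10, minimum total 15). TMM scaling and edgeR's quasi-likelihood test with robust dispersions were applied to all 20 libraries with 10 group means (10 residual degrees of freedom, common biological coefficient of variation 38.7%). Calls needed an adjusted p (Benjamini-Hochberg, over all tested genes) under 0.05 and no minimum fold. The SE is the log2 fold change over the square root of F. Comparisons were 9 treated groups against control, the combination against anti-CTLA-4 and against the depleted combination, 3 agent effects and any difference. The interaction of APG-157 with anti-CTLA-4 was added after seeing the data. Correlations used 100000 two-sided permutations of the libraries, without regard to group. The test scripts were checked on simulated counts. Tools were R 4.3.3, edgeR 4.0.16, DESeq2 1.42.0, Python 3.11.15 and matplotlib 3.10.9.

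Every member is named. From the other lists, genes past the threshold were named, at most 3 per list and comparison, and the inhibitors in any case, as were the genes with the highest r to a member (at most 3). A few levels of other marker genes serve as checks. The members and gene lists were chosen with earlier results of these data known. The alternatives were median-ratio (RLE) factors, no filter, a mean of 1 CPM, DESeq2, a log2 fold minimum of 2, a replicate block, a skeletal muscle covariate, the compared groups only, each library left out, the combination libraries summed, and for correlations a pseudocount of 1 and, added after seeing the data, 1 library of that pair left out.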

Additional observations from a re-analysis of the deposited data

How the results depend on the processing

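Median-ratio (RLE) factors gave the same number of called members in every comparison. In the combination against the depleted combination, 3 members were called (19.0% of genes), but 0 with the compared groups only (0% of genes), 0 with the combination libraries summed (0.00910%), and 6 with DESeq2 (30.1%). Leaving out 1 library gave 0 to 5. Without 1 library at a time, the log2 fold change of Mmp8 ranged between −5.91 (without replicate A of the depleted combination) and 0.94 (without its replicate B). In the combination against control, 0 became 3 with DESeq2 (2.31% of genes) and 5 with the compared groups only (4.21%), and 0 to 1 with libraries left out. Against anti-CTLA-4, 0 became 2 with DESeq2 (17.8% of genes), 3 with the compared groups only (14.3%) and 1 with a mean of at least 1 CPM (6.78%), and 0 to 1 with libraries left out. The labels give no pairing by the letters A and B. Same-letter deviations had a median r of 0.02 over 45 pairs of groups (−0.38 to 0.71, 13 above 0.1), so a shared difference in some groups is possible. A replicate block called 1 member there, Mmp3 (edgeR adjusted p of 0.0410, 3.05% of genes called), and 0 in the test of any difference, and it changed no other count of called members. With the block, Tnf and Eln had an edgeR adjusted p of 0.0568 for the anti-CTLA-4 effect.

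For the anti-CTLA-4 effect, 0 became 3 with DESeq2 (3.55% of genes), 2 with the compared groups only (0.741%), 1 with no low-count filter (0.229%) and 1 with the skeletal muscle covariate (0.169%), and 0 to 2 with libraries left out. DESeq2 called 1 member for the anti-PD-1 effect (0.902% of genes), 1 in dual blockade against control (0.539%) and 1 in the depleted combination against control (7.12%), where leaving out a library gave 0 to 4. For any difference, 1 called member became 4 with DESeq2 (17.8% of genes), 0 with no filter (0.857%), 0 with the covariate (0.00511%), 0 with the summed libraries (0%) and 0 to 5 with libraries left out. The counts of 5, 4 and 5 came without replicate A of the depleted combination (40.7%, 30.2% and 18.2% of genes), and those of 1, 1 and 2 without its replicate B (0.143%, 5.65% and 0.891%). For the correlations, 5 pairs became 2 within the A libraries and 0 within the B libraries, which hold 10 libraries each. Where a left-out library leaves 1 in a group, it is assumed to vary like the other groups. The causes were not tested. With 2 libraries a group, a member that edgeR did not call is not shown to be unchanged.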

Other observations

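Mmp13 differed between the 2 libraries of a group along with Cd8a, a T cell gene, a pattern that was picked out after all 10 members had been looked at. In 10 of 10 groups the library with more Cd8a was the one with less Mmp13. The same count was 8 of 10 for Mmp1b and for Mmp10, 7 for Mmp9, 6 for Mmp11 and Mmp14, and 5 for Mmp2, Mmp3, Mmp8 and Mmp12. In the anti-CTLA-4 group, Cd8a was at 32.2 CPM in replicate A and 0.800 CPM in replicate B, where Mmp13 was at 18.0 and 35.1 CPM in the same order. In the triple treatment, Cd8a was at 43.9 and 3.99 CPM in replicates A and B, and Mmp13 at 15.9 and 37.3 CPM. In dual blockade, Cd8a was at 28.02 and 56.6 CPM, and Mmp13 at 64.0 and 14.7 CPM. The groups that received anti-CD8 count toward the 10 although Cd8a was at most 0.381 CPM in them, and in the combination Cd8a hardly differed (11.9 CPM in each library). Across groups the order did not hold, since the combination had the lowest Mmp13 at an intermediate Cd8a. No test was made of this count, and the share of all genes with the same count was not determined.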
